A study of Nannochloropsis oceanica with 8 samples.

Results

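Narrow peaks that carry Kbu were examined in *Nannochloropsis oceanica* IMET1, a single-celled marine alga rich in oil. Kbu commonly stands for butyrylated lysine, and the labels name no histone or residue for the antibody. A peak was a member when its end minus its start was under 600 bp and its Kbu level at high CO2 was at least 2 in both libraries. The level is the pileup of ChIP reads at the peak over the lowest control value of that library, taken here as the genome background. This rule gave 411 of the 6185 deposited peaks. Another 5322 peaks of 600 bp or more met the same Kbu limit and are called wider Kbu peaks, and 256 narrow peaks lay below the limit.

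The series holds 4 groups of 2 libraries. Cells were grown with aeration at 5% CO2 (high CO2) or switched from it to 0.04% CO2 (low CO2), and both were sampled at 24 h. Each condition was profiled with 2 antibodies, one to histone H3 dimethylated at lysine 9 (H3K9me2) and the other to Kbu. All groups are strain IMET1 in the same buffered medium under continuous light, with no other genotype or agent named. The labels describe 3 cultures per CO2 level but not which culture gave which library. The p-values below therefore reflect only how far these libraries differ, and that spread may be technical.

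Histone acylations neutralise the positive charge of lysine. Butyrylation has been found beside acetylation at active genes in animals and plants. H3K9me2 is bound by heterochromatin proteins in many eukaryotes and is known for keeping genes and mobile elements silent. Algae that meet low CO2 induce a set of genes for taking up and concentrating inorganic carbon. The tables used here pair no gene with a peak, so members are given by position on the coordinates of the deposited tables. The sources used here do not name their genome build.

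The members were a small part of the peaks that carry Kbu. They made up 7.17% of the peaks with Kbu and 6.65% of all peaks. Their median width was 552 bp (quartiles 510.5 and 579 bp, range 347 to 599 bp), against 1070 bp at wider Kbu peaks. At high CO2 their Kbu level had a median of 2.66 in replicate 1 and 2.67 in replicate 2, with lowest values of 2.01 and 2.00 and highest values of 4.82 and 4.72. Wider Kbu peaks had a median of 3.89 ± 0.020 (SD, n = 2 libraries). The members were chosen by their width and by these levels, which are given as a description. The local control cannot check the label, because the rule fixes the outcome in the libraries that chose the members. In Kbu replicates 1 and 2 at high CO2 the members' control reached at most 1.95 and 1.90 times its lowest value, below the limit of 2. The Kbu pileup therefore stood above the local control in both libraries at all 411, as it did at all 5322 wider Kbu peaks. It was at least 2 times the local control at 248 members (60.3%), against 93.2% of wider Kbu peaks. The Kbu level of both high-CO2 libraries exceeded the H3K9me2 level of both high-CO2 libraries at all 411, and at 5321 wider Kbu peaks.

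The counts behind these levels differed between libraries. For Kbu, the pileup at the median member corresponded to 584 and 425 reads under high CO2 and to 136 and 85 under low CO2. For H3K9me2 the reads were 50 and 28 under high CO2 and 64 and 34 under low CO2. The Poisson error of such counts was 4.14% to 4.85% for Kbu at high CO2, 8.57% to 10.8% for Kbu at low CO2 and 12.5% to 18.9% for H3K9me2. The genome background itself was 23.4 and 23.1 for Kbu under high CO2 and 9.90 to 11.7 for the other 6 libraries. Between replicates, Kbu levels correlated across members at 0.93 at high CO2 and 0.84 at low CO2 (Pearson's r, 411 peaks). H3K9me2 levels correlated at 0.19 and 0.46. These correlations are across peaks of shared libraries and are given as a description.

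**Figure D1:**
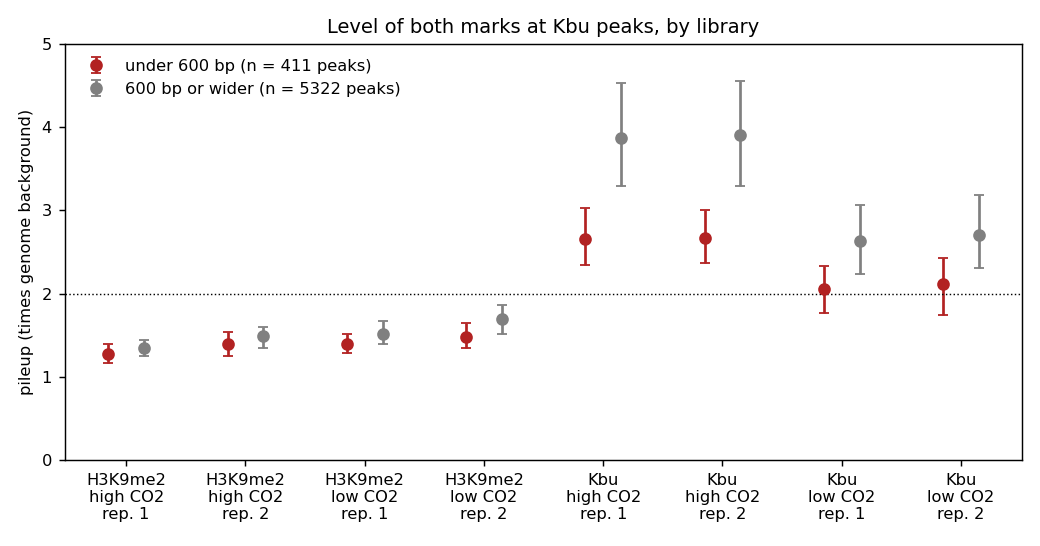
Pileup over the genome background (y axis) in each of the 8 libraries (x axis) at the 411 narrow and 5322 wider peaks that carry Kbu. Points are medians over peaks, bars span the quartiles, and the dotted line marks the Kbu limit of 2. The narrow peaks lie below the wider ones in every library, by most in Kbu.

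Thresholds cut through a continuous distribution. Just under 600 bp lay peak4904 and peak5199 (both 599 bp), with mean Kbu levels at high CO2 of 3.04 and 3.29. Just outside were peak1707 and peak1956 (both 600 bp), with 3.22 and 2.54. At the Kbu limit, peak654 and peak1106 had 2.001 in the lower library, and peak3567 and peak4034 missed it with 1.995 each. Kbu was rare in the narrowest peaks of the table. It was found at 5 of 89 peaks of 300 to 400 bp (5.62%), at 71 of 181 of 400 to 500 bp (39.2%), at 116 of 147 of 500 to 550 bp (78.9%) and at 219 of 249 of 550 to 600 bp (88.0%). Among wider peaks the share was 87.2% at 600 to 650 bp and 98.7% at 1000 to 1500 bp.

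Kbu level followed width inside the member set too. Median Kbu at high CO2 was 2.11 ± 0.026 in members of 300 to 400 bp, 2.38 ± 0.048 at 400 to 500 bp, 2.51 ± 0.019 at 500 to 550 bp and 2.87 ± 0.014 at 550 to 600 bp (SD, n = 2 libraries). It went on to 3.16 ± 0.0041 in the next class of 600 to 650 bp, with no step at the limit. At low CO2 the same width classes had medians of 1.80 ± 0.12, 1.83 ± 0.0062, 2.00 ± 0.0028, 2.21 ± 0.070 and 2.25 ± 0.016. At low CO2 the 300 to 400 bp class of 5 peaks and the 400 to 500 bp class differed by less than the spread between libraries, and so did the classes on either side of 600 bp. The 3 narrowest members were peak3939 (chromosome 28, 565110 to 565457, 347 bp), peak6132 (chromosome 9, 938352 to 938723, 371 bp) and peak5259 (chromosome 6, 745782 to 746154, 372 bp). Their mean Kbu levels at high CO2 were 2.15, 2.10 and 2.18.

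**Figure D2:**
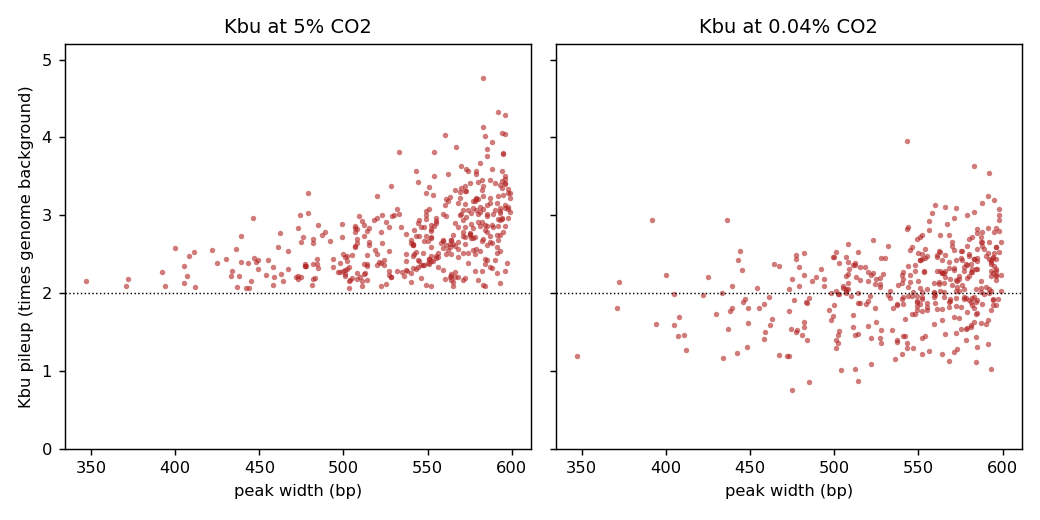
Mean Kbu level over 2 libraries (y axis, times the genome background) against peak width (x axis, bp) for the 411 members at 5% and at 0.04% CO2. The dotted line marks a level of 2, which every member exceeds at high CO2 by the rule, and which 189 members exceed in both libraries at low CO2.

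The members with most Kbu at high CO2 all measured 583 to 596 bp. Peak604 (chromosome 11, 155883 to 156466) led with levels of 4.82 and 4.72, and had 3.37 and 3.90 at low CO2. Its low-CO2 libraries both lay below its high-CO2 libraries. Peak1866 (chromosome 16, 895882 to 896474) had 4.42 and 4.23 at high and 3.95 and 3.13 at low CO2. Peak3179 (chromosome 22, 514610 to 515206) had 4.45 and 4.13 under high CO2 and 2.15 and 2.73 under low CO2. Next came peak1308 (chromosome 14, 222505 to 223088), whose high-CO2 libraries lay further apart (4.55 and 3.72), and which had 2.995 and 3.08 at low CO2. The fifth was peak4115 (chromosome 3, 352085 to 352679) with 4.06 and 4.05 at high and 1.75 and 2.06 at low CO2. High Kbu at high CO2 thus went with different levels at low CO2, from 1.91 ± 0.22 at peak4115 to 3.64 ± 0.37 at peak604 (SD, n = 2). All 5 had low-CO2 libraries below both high-CO2 libraries, as did 84.4% of members and 88.9% of all peaks. They were picked for high Kbu at high CO2, which favours this order.

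At low CO2 the median Kbu level of the members was 2.06 in replicate 1 and 2.11 in replicate 2, or 2.08 ± 0.039 (SD, n = 2), against 2.67 ± 0.054 at wider Kbu peaks. A level of at least 2 in both low-CO2 libraries was found at 189 members (46.0%, 95% Wilson interval 41.2% to 50.8%) and at 4397 wider Kbu peaks (82.6%, 81.6% to 83.6%). These intervals cover counting error over peaks only. On pileup over local control the shares were 0.243% and 0.0564%, and the difference of Kbu medians, members minus wider peaks on the log2 scale, turned from -0.34 to 0.37. What follows on Kbu kept at low CO2 is on the level over genome background. Both low-CO2 libraries lay below both high-CO2 libraries at 347 members (84.4%) and above them at 19 (4.62%), while 45 overlapped. Over all peaks these shares were 88.9% and 5.14%. The rule used Kbu at high CO2, so this change is a description with no test. Its size also rests on the genome background, which differed between the high- and low-CO2 Kbu libraries as given above. The mean level at low CO2 was 0.754 of that at high CO2 at the median member (quartiles 0.651 and 0.860), against 0.683 at wider Kbu peaks.

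Within ranges of Kbu at high CO2, the shares that kept Kbu were closer between narrow and wider peaks. Members with a level of 2 to 2.5 at high CO2 kept at least 2 in both low-CO2 libraries in 24.7% of 154 cases, against 30.3% of 228 wider peaks of that range. Between 2.5 and 3 the shares were 50.7% of 148 and 56.5% of 559. They were 65.4% of 81 and 72.8% of 970 between 3 and 3.5, and 85.0% of 20 and 85.8% of 1173 between 3.5 and 4. Median Kbu at low CO2 was 1.82 ± 0.028 in members and 1.85 ± 0.024 in wider peaks of the first range. It was 2.14 ± 0.031 and 2.19 ± 0.035 in the second, 2.26 ± 0.034 and 2.38 ± 0.075 in the third, and 2.46 ± 0.023 and 2.59 ± 0.055 in the fourth (SD, n = 2). The range of 4 or more holds 8 members and is too thin to compare. On pileup over local control the order turned, with medians at low CO2 of 0.930 ± 0.030 in members and 0.767 ± 0.020 in wider peaks of the first range, and members stood higher in the other ranges as well.

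**Figure D3:**
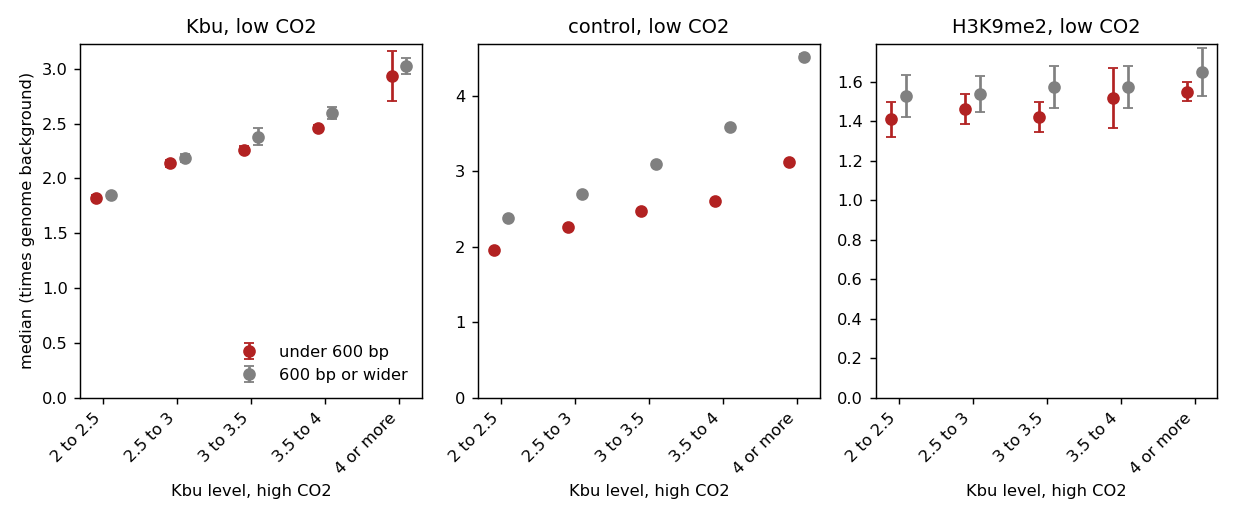
Kbu, control and H3K9me2 at low CO2 (y axes, median over peaks in times the genome background, each panel from 0) in ranges of the Kbu level at high CO2 (x axis) for narrow and wider Kbu peaks. Bars are the SD of the 2 library medians, and the last range holds 8 narrow peaks. Kbu is close in narrow and wider peaks of a range, and the control is lower at the narrow peaks in all 5 ranges.

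On the level over genome background, a few members held more Kbu at low than at high CO2. Peak3662 (chromosome 26, 290268 to 290811) had 2.37 and 2.24 under high CO2 and 3.99 and 3.93 under low CO2, 1.72 times its high-CO2 level. Peak303 (chromosome 1, 1402706 to 1403272) had 2.16 and 2.25 at high and 2.72 and 3.48 at low CO2. At peak3184 (chromosome 22, 548953 to 549345, 392 bp) the levels were 2.08 and 2.47 at high and 2.93 and 2.93 at low CO2. The groups did not overlap at any of these 3, which were picked for the highest ratio of low to high CO2. Both low-CO2 libraries lay above both high-CO2 libraries at 4.62% of members and 5.14% of all peaks. Peak2999 (chromosome 21, 422563 to 423119) and peak4765 (chromosome 4, 1389232 to 1389676) followed with 1.26 and 1.23 times their high-CO2 levels. On pileup over local control the log2 change was -0.32 at peak3662, -0.42 at peak303, -0.60 at peak3184, -0.61 at peak2999 and 0.33 at peak4765. On that scale 3 of the 411 members were higher at low CO2, and 116 of all 6185 peaks. At the other end stood peak5068 (chromosome 5, 1236114 to 1236589), with 2.21 and 2.20 under high CO2 and 0.817 and 0.696 under low CO2. This is below the genome background and 0.343 of its high-CO2 level. Peak3600 (chromosome 25, 643110 to 643595) went from 2.30 and 2.34 to 0.832 and 0.895, and peak3305 (chromosome 23, 538689 to 539203) from 2.06 and 2.29 to 0.771 and 0.969. Peak1688 (chromosome 16, 73102 to 73695) and peak971 (chromosome 12, 711607 to 712180) had 0.406 and 0.430 of their high-CO2 levels. Except for peak971, with 3.005 and 2.955, the members at both ends had mean levels at high CO2 of 2.06 to 2.54, near the limit of 2.

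Members that kept Kbu had somewhat higher H3K9me2 medians at low CO2 than those that did not. The 189 with at least 2 in both low-CO2 libraries had a median width of 565 bp and a median H3K9me2 level of 1.31 ± 0.053 at high and 1.47 ± 0.060 at low CO2 (SD, n = 2). The other 222 had a median width of 541.5 bp and H3K9me2 of 1.32 ± 0.11 and 1.40 ± 0.11. Their low-CO2 controls stood at 2.44 ± 0.0091 and 2.01 ± 0.0091 times the lowest value. In the 2 low-CO2 libraries the H3K9me2 medians were 1.43 and 1.52 in the first set and 1.32 and 1.47 in the second. At high CO2 they were 1.27 and 1.34 against 1.24 and 1.39, with a different order in each library. The median log2 change of H3K9me2 was 0.18 and 0.074. Across all members Kbu and H3K9me2 at low CO2 correlated at 0.32 (Pearson's r, means of 2 libraries per mark, 411 peaks that share libraries). At wider Kbu peaks the same correlation was 0.48. With the low-CO2 control, Kbu correlated at 0.41 and H3K9me2 at 0.31 across members, and at 0.59 and 0.39 across wider Kbu peaks. These values are a description with no test.

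H3K9me2 was low at the members and rose by a small amount at a few of them. Median levels per library were 1.27 and 1.39 under high CO2 and 1.39 and 1.47 under low CO2, so the library medians of the 2 CO2 levels met at 1.39. None of the members reached 2 in both libraries at high CO2, and 3 did at low CO2 (0.730%), against 265 wider Kbu peaks (4.98%). H3K9me2 was not used by the rule, and low was compared with high CO2 at all peaks with limma on log2(level + 0.1). Among the members 9 rose at low CO2 (2.19%) and 0 fell, at a Benjamini-Hochberg adjusted p under 0.05 over all 6185 peaks with n = 2 libraries per group. Over all peaks 4.92% rose and 0.0% fell, so the members' share lay below the background. At an unadjusted p under 0.05, 44 members were higher (10.7%, all peaks 18.7%) and 2 lower (0.487%, all peaks 0.34%) in the same limma fit. The median log2 change was 0.12 over the members and 0.17 over all peaks. Both low-CO2 libraries lay above both high-CO2 libraries at 141 members (34.3%, all peaks 45.9%) and below them at 34 (8.27%, all peaks 3.78%). None of the 9 calls stood when any 1 of the 4 H3K9me2 libraries was left out, where limma called 0 members in every case. Over all peaks 0.323% and 0.356% were higher without high-CO2 replicate 1 or 2, and 0.0% without either low-CO2 library, so these fits made few calls anywhere. They assume that the single library left in a group varies like the other group. On pileup over local control none of the 9 was called higher (all peaks 1.37%) and 2 were called lower (all peaks 93.1%).

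Peak4705 (chromosome 4, 1094007 to 1094429) had the largest rise. Its H3K9me2 level was 1.09 and 1.14 under high CO2 and 1.91 and 2.47 under low CO2, a difference of 0.90 on the log2 scale (SE 0.17, limma adjusted p = 0.0026). Its Kbu level went the other way, from 2.55 ± 0.12 to 1.97 ± 0.19 (SD, n = 2). Peak272 (chromosome 1, 1272202 to 1272787) had 1.35 and 1.34 under high CO2 and 2.21 and 2.21 under low CO2, or 0.68 on the log2 scale (SE 0.17, limma adjusted p = 0.019). Peak3609 (chromosome 26, 6798 to 7356) rose by 0.66, from 1.17 and 1.14 to 1.71 and 2.08. Its Kbu was also higher at low CO2, at 3.02 ± 0.24 against 2.64 ± 0.040. Peak4570 (chromosome 4, 502965 to 503533) rose by 0.65 in H3K9me2, with Kbu of 2.75 and 2.57 at high and 2.71 and 2.78 at low CO2, where the groups overlapped. Peak1759 (chromosome 16, 428033 to 428626) rose by 0.63, from the lowest start of these 5 (1.02 and 0.796) to 1.35 and 1.56. Its 0.796 was the lowest level of all 411 members in high-CO2 replicate 2, worth 16 reads. The low-CO2 levels of this peak lay near the member medians of 1.39 and 1.47. Groups did not overlap at any of the 5, which the choice of these peaks required. The 4 other calls were peak2421, peak1210, peak4163 and peak3407, with log2 changes of 0.57 to 0.61, and all 9 adjusted p-values were between 0.0026 and 0.045 (limma).

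**Figure D4:**
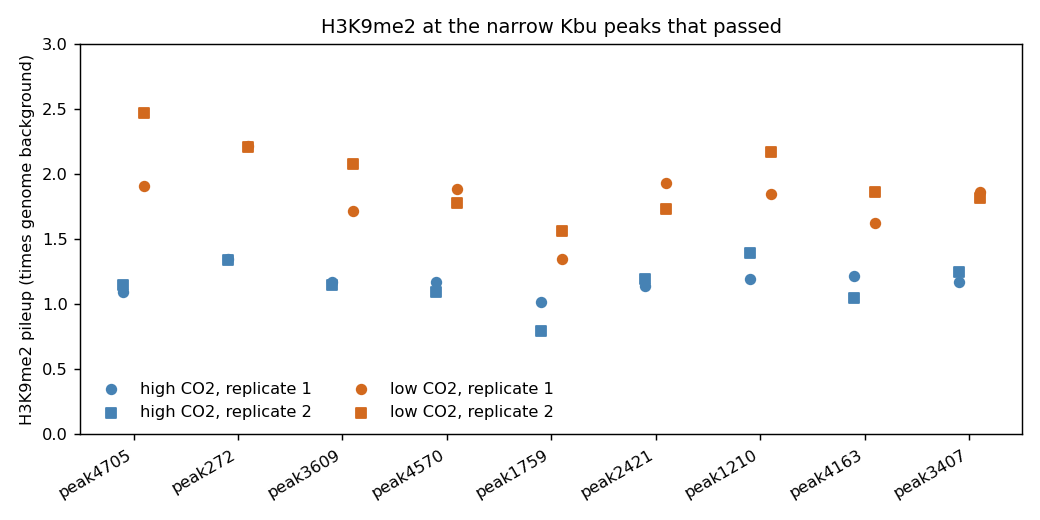
H3K9me2 pileup in times the genome background (y axis) in the 4 H3K9me2 libraries at the 9 members that passed (x axis, ordered by log2 change). Points are single libraries, and at each peak both low-CO2 points lie above both high-CO2 points.

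On the level over genome background, members carried less H3K9me2 than wider Kbu peaks in each of the 4 libraries, and on pileup over local control they carried more at low CO2. The difference of medians on the log2(level + 0.1) scale was -0.08 and -0.09 under high CO2 and -0.12 and -0.19 under low CO2. The sign was the same in 4 of 4 libraries (exact sign-flip permutation test, two-sided, p = 0.125, the smallest that 4 libraries can give). The gap was wider at low than at high CO2, without overlap of the libraries (exact permutation test, two-sided, p = 0.333, the smallest that 2 against 2 can give). Neither test could pass 0.05. On pileup over local control the difference at low CO2 turned to 0.62 and 0.58. Within ranges of Kbu at high CO2 the low-CO2 medians were lower in the members each time, at 1.41 ± 0.091 against 1.53 ± 0.11 for levels of 2 to 2.5, 1.46 ± 0.075 against 1.54 ± 0.090 for 2.5 to 3, 1.42 ± 0.075 against 1.57 ± 0.11 for 3 to 3.5 and 1.52 ± 0.15 against 1.57 ± 0.11 for 3.5 to 4 (SD, n = 2). The gap exceeded both SDs at levels of 2 to 2.5 and of 3 to 3.5, and lay within the SD of the wider peaks at 2.5 to 3 and at 3.5 to 4. Both sets come from the same 2 libraries, so these SDs do not measure the spread of the gap.

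The control was where narrow and wider peaks differed most at low CO2. At high CO2 the control of the Kbu libraries was 1.24 ± 0.048 times its lowest value at the median member and 1.31 ± 0.042 times at wider Kbu peaks. At low CO2 it stood at 2.23 ± 0.019 at the members and at 3.73 ± 0.025 at wider Kbu peaks (SD, n = 2). On the log2 scale the members' control was lower by -0.08 and -0.10 at high CO2, and by -0.74 and -0.75 at low CO2 (exact permutation test, two-sided, p = 0.333, the smallest possible). The low-CO2 control columns of the 2 marks hold nearly the same profile (correlation of log2 values over all peaks of 0.9998 or more), so they are not separate measurements. The lower control at members held within ranges of Kbu at high CO2, with 1.95 ± 0.0016 against 2.39 ± 0.018 at levels of 2 to 2.5 and 2.60 ± 0.024 against 3.59 ± 0.022 at levels of 3.5 to 4.

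This control enters the values that the authors compared, which are the ratio of pileup to control scaled by 1 factor per library. At the median member the log2 change of Kbu from high to low CO2 was -0.41 in pileup over genome background and 0.85 in the control. The ratio of the pair changed by -1.27, and the deposited normalised value by 0.81. At wider Kbu peaks the corresponding medians were -0.55, 1.51, -2.06 and -0.02. For H3K9me2 the members had 0.13 in pileup, 0.90 in control, -0.76 in ratio and 0.69 in normalised value, and wider Kbu peaks had 0.19, 1.55, -1.36 and 0.00. The dividing factors of Kbu replicates 1 and 2 were 3.13 and 3.20 with 5% CO2, against 0.713 and 0.752 with 0.04% CO2. Those of H3K9me2 were 1.04 and 1.19, against 0.382 and 0.425. The members' median ratio fell in both marks, and division by the smaller low-CO2 factors turned this into a rise. The members therefore stood higher at low CO2 on the deposited scale in both marks, and lower in Kbu pileup.

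**Figure D5:**
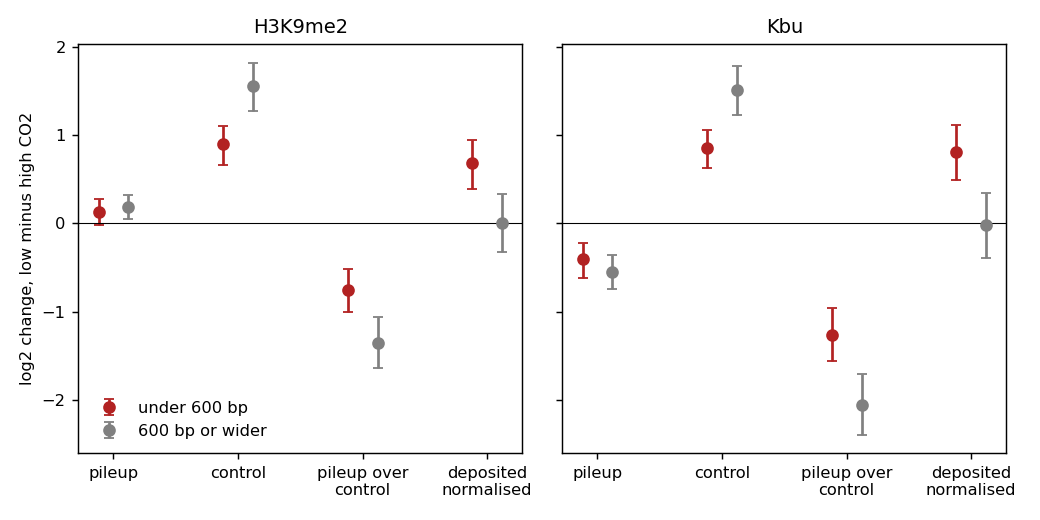
Log2 change from high to low CO2 (y axis) of the pileup over genome background, the control, the pileup over control and the deposited normalised value (x axis) for both marks. Points are medians over the 411 narrow or 5322 wider Kbu peaks, and bars span the quartiles. Narrow and wider peaks are close in pileup, and the deposited value lies above 0 at narrow peaks and on either side of 0 at wider peaks.

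In the authors' deposited table for Kbu, 209 of the 411 members (50.9%) have the status of loss, a lower value at high than at low CO2 at an unadjusted p under 0.05, and 0 have a gain. Over all peaks the authors' deposited table gives this status to 15.6% and a gain to 2.93%, and among wider Kbu peaks to 432 (8.12%). The members were thus 21.7% of all peaks that the authors' deposited table marks as Kbu loss. The rule used Kbu at high CO2, and nothing is read from this difference. An adjusted p is given for 298 members in the authors' deposited table, and it is under 0.05 at 140 of them, all lower at high CO2 (all peaks 10.1%). Of the 209 members, 154 had lower Kbu pileup over genome background in both low-CO2 than in both high-CO2 libraries, and 18 had higher. Among the 202 members marked stable these counts were 193 and 1, and the shares over all peaks were 88.9% and 5.14%. At the 209 the median log2 change of Kbu from high to low CO2 was -0.26 in pileup over genome background and 0.67 in the control. At the 202 marked stable these were -0.58 and 1.01. The median low-CO2 control was 1.97 times its lowest value at the 209 and 2.50 at the 202, while the high-CO2 control was 1.24 and 1.23. Examples of the 209 are peak1866 and peak1308, both among the members with most Kbu at high CO2. Within the range of 2 to 2.5, 65.6% of members and 44.3% of wider Kbu peaks have this status, and between 3 and 3.5, 33.3% and 11.8%.

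In the authors' deposited table for H3K9me2, 89 members (21.7%) have the status of loss and 0 a gain. The share over all peaks is 7.73% there, and among wider Kbu peaks it is 2.48%. The authors' deposited table gives an adjusted p to 182 members, and it is under 0.05 at 43, all lower at high CO2 (all peaks 4.79%). Of the 89, 78 also had a higher H3K9me2 pileup level at low CO2, as did 287 of the 411 members and 5061 of all 6185 peaks. In the authors' deposited table for Kbu, 74 of the 89 are marked as loss as well, against 209 of the 411 members (all peaks 15.6%). The authors' comparisons of the 2 marks divide by controls of nearly the same profile. Tested with limma on log2(normalised value + 1), H3K9me2 was higher at low CO2 at 281 members (68.4%, all peaks 24.5%) and lower at 3 (0.730%, all peaks 12.1%), with n = 2 libraries per group and adjusted p under 0.05. Without high-CO2 replicate 1 the higher calls were 177 (43.1%, all peaks 13.5%), and without replicate 2 they were 186 (45.3%, all peaks 13.7%). Without low-CO2 replicate 1 or 2 they were 225 and 257 (all peaks 19.3% and 20.6%). The lower calls were 3 without low-CO2 replicate 1 (all peaks 9.07%) and 0 without each of the others (all peaks 0.954%, 1.26% and 10.4%, in the order high-CO2 replicates 1 and 2 and low-CO2 replicate 2). When only pileups were used, each library set to 1 common geometric mean, 4 members rose (0.973%, all peaks 4.01%) and 6 fell (1.46%, all peaks 1.03%) against the average peak. Of the 281, 3 also rose on the pileup alone and 2 fell there. On the ratio to control without size factors 335 members fell (all peaks 93.1%) and 0 rose (all peaks 1.37%). At the 9 members called on the level, 7 were among the 281. How far the control accounts for the remaining calls was not tested.

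Members were spread over all 30 chromosomes, with 5 to 27 each. Their share of the Kbu peaks of a chromosome ran from 4.29% on chromosome 17 (7 of 163, 95% Wilson interval 2.10% to 8.60%) to 11.5% on chromosome 24 (15 of 130, 7.12% to 18.2%), with a median of 6.72%. The 2 intervals overlap. None of the members was an outermost peak of a chromosome, where 60 of all 6185 peaks were (0.970%). Among the 256 narrow peaks below the Kbu limit 9 were outermost (3.52%), and among the 5322 wider Kbu peaks 40 (0.752%). The median gap to the nearest peak was 1768 bp (quartiles 1234 and 2588.5 bp), against 2101.5 bp at wider Kbu peaks. A gap of 5000 bp or more was found at 19 members (4.62%) and 382 wider Kbu peaks (7.18%).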

How the data were processed

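H3K9me2 and Kbu were profiled by ChIP-seq with single-end Illumina reads in 2 libraries per mark and CO2 level, per the labels' protocols. Tools named in the submitters' processing notes are MACS2, deepTools, Picard, BWA and Trim Galore. The sources used here give no versions or settings, nor how peaks were called and merged, nor whether a pileup is a summit or a mean over the peak. The authors deposited 3 values per library, a pileup signal, a control signal (lambda per the file headers) and a normalised signal. In all peaks the last was 10 times the ratio of pileup to control, rounded down and divided by 1 factor per library. The authors' deposited tables also give a log2 fold change (high over low CO2), its standard error, a test score, a p-value and an adjusted p-value.

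In each library 100% of pileups were a whole number of steps (within 0.05 of a step), which gives the reads stacked at a position but not all reads of a peak, so no count test was run. The depth of the libraries is unknown.

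Levels were computed as pileup over the lowest control value of the library. H3K9me2 was compared between CO2 levels with limma 3.58.1 in R 4.3.3 (mean trend, two-sided, Benjamini-Hochberg over 6185 peaks, 4 libraries, no filter) on log2(level + 0.1), where the pseudocount understates changes at low values. The fit was tested on simulated data. Single values were compared over libraries with exact permutation tests. Named peaks were the 5 with most Kbu and the 5 with the largest called H3K9me2 rise and fall without group overlap (none fell). Also named were the 5 with the highest and lowest Kbu at low over high CO2, the 3 narrowest and those nearest to the thresholds. Peak2421, peak1210, peak4163 and peak3407 are named as the rest of a short count. Members, rules and lists were chosen with earlier results of these data known. Alternatives were other scales, pseudocounts, limits, filters, a replicate block and each library left out. Gene positions and peak sequences were not used here. Other software was Matplotlib 3.10.9, SciPy 1.17.1, pandas 2.3.3 and NumPy 2.4.6 in Python 3.11.15.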

Additional observations from a re-analysis of the deposited data

How the results depend on the processing

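The number of narrow Kbu peaks was 76 under 500 bp, 910 under 700 bp, 88 with a Kbu limit of 3 and 248 on pileup over local control. H3K9me2 rises on the level were 1 of the 76, 20 of the 910 and 3 of the 88, where 4.92% of all peaks rose. Among the 411 members, limma called 281 higher and 3 lower in H3K9me2 on the deposited normalised value, 4 and 6 on the pileup scaled to 1 geometric mean, 0 and 335 on pileup over local control, and 1 higher at an adjusted p under 0.01. Without any 1 library the level gave 0 higher calls in each case, and 18 to 45 higher at an unadjusted p under 0.05 (all peaks 7.10% to 16.5%). On the deposited value, leaving out a library (added after seeing the data) gave 177 to 257 higher (all peaks 13.5% to 20.6%) and 0 to 3 lower. With the replicate block 34 were higher (8.27%, all peaks 14.7%) and 2 lower (0.487%, all peaks 0.162%). The labels do not say whether replicate numbers pair the libraries. In H3K9me2, deviations of replicate 1 from its group means at high and low CO2 correlated across peaks at 0.042, so no pairing was assumed. Of the 5 named rises, all kept their direction except on pileup over local control, where peak272 was at -0.32, peak3609 at -0.93, peak4570 at -0.046 and peak1759 at -0.31. None passed with a library left out.

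The narrow minus wider difference of H3K9me2 at high CO2 was -0.056 under 500 bp and -0.011 on pileup over local control, and at low CO2 it was 0.60 on the latter. Kbu at low CO2 had a median at members of 1.84 under 500 bp, 2.21 under 700 bp, 1.90 with a limit of 1.5, 2.36 with a limit of 3 and 0.932 over local control. Its narrow minus wider difference was -0.50, -0.29, -0.46 and -0.23 in the first 4 and 0.37 over local control, and -0.36 to -0.34 with a library left out. The share with at least 2 was 26.3%, 56.8%, 35.2%, 72.7% and 0.243% in members and 80.7%, 84.4%, 81.2%, 89.1% and 0.0564% in wider peaks. With a library left out it was 44.0% to 57.9% in members and 82.4% to 87.2% in wider peaks. Pileup over local control divides by a control that was lower at narrow peaks. In the Kbu libraries the log2 difference of that control was -0.74 and -0.75 at low CO2, and -0.08 and -0.10 at high CO2. Which of the 2 scales reflects the mark better was not tested. The reads at the median member leave a counting error of 12.5% to 18.9% in H3K9me2.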

Other observations

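Members had neighbours like those of wider Kbu peaks in width and Kbu. The nearest peak of a member had a median width of 1049 bp and a median Kbu level of 3.67 at high CO2, against 1001 bp and 3.71 for wider Kbu peaks. It was itself a member at 17 of 411 members (4.14%), while members made up 6.65% of all peaks. In the order along the chromosomes, 14 pairs of members followed each other directly and no run was longer than 2. Examples are peak515 and peak516 (chromosome 10, 776725 to 779118) and peak971 and peak972 (chromosome 12, 711607 to 714285), chosen after their values were seen. The member farthest from any other peak was peak5937 (chromosome 9, 96515 to 97067), with a gap of 10800 bp.

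At the 256 narrow peaks below the Kbu limit the median width was 433 bp. Their Kbu level was 1.67 ± 0.0078 at high and 1.40 ± 0.018 at low CO2 (SD, n = 2), and their low-CO2 control stood at 1.60 ± 0.016 times its lowest value, below that of the members. Their H3K9me2 level was 1.31 ± 0.053 and 1.40 ± 0.045, within 1 SD of the members' 1.33 ± 0.088 and 1.43 ± 0.060, and limma called 22 of them higher at low CO2 (8.59%). The authors' deposited tables give the status of loss to 75.4% of them for Kbu and to 60.9% for H3K9me2.

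Pileup over the local control was above 1 in both low-CO2 Kbu libraries at 130 members (31.6%), and at 6.14% of wider Kbu peaks. The median Kbu pileup at members was 0.932 ± 0.027 of the control at low CO2 and 2.18 ± 0.057 at high CO2 (SD, n = 2).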
